A study of Mus musculus with 4 samples.

Results

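A set of 7 genes of neutrophil priming, Elane, Mpo, Prtn3, Ctsg, Ms4a3, Hp and Anxa3, was followed through single bone marrow progenitor cells. They were taken by symbol, and all 7 of 7 were found, each as 1 entry, among the 27998 genes of the files. The cells were Lin-Sca1+cKit+ (LSK) cells sorted from mouse bone marrow, a fraction that holds the blood stem cells and multipotent progenitors. The control group was Nup358 fl/fl mice, labelled wild-type, with 2 libraries, and the knockout group was Nup358 fl/fl CreERT2 mice, also with 2 libraries. The study's methods give mice of 9 to 12 weeks, marrow of 3 mice pooled for a library, and tamoxifen on 3 consecutive days. Cre was expressed from the R26 locus and the gene is lost in all tissues. In these libraries a change in the cells and a change in their surroundings therefore cannot be told apart. The paper also deleted Nup358 in marrow transplanted into wild-type mice, where blood neutrophils and monocytes fell. From the transplants it concludes that the role is intrinsic to the progenitors. Those mice are not part of these libraries. Both groups carry the floxed Nup358 alleles. Nup358 (also called RanBP2) is a protein on the cytoplasmic face of the nuclear pore.

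Neutrophils fill their granules in waves. The first wave, in promyelocytes, makes the primary (azurophil) granules with myeloperoxidase and the serine proteases neutrophil elastase, proteinase 3 and cathepsin G, and the factors C/EBPα, PU.1, RUNX1 and MYB are known to act on these genes. Some multipotent progenitors already hold transcripts of the first wave, which is called myeloid or neutrophil priming. Of the 7 genes, Elane (elastase), Prtn3 (proteinase 3), Ctsg (cathepsin G) and Mpo (myeloperoxidase, which makes hypochlorous acid) encode primary granule enzymes. The other 3 are not granule enzymes: Ms4a3 encodes a membrane protein of granulocyte and monocyte progenitors, Hp encodes haptoglobin, which neutrophils store in specific granules, and Anxa3 encodes an annexin, a calcium-dependent membrane-binding protein.

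On GRCm38 (GENCODE annotation), Prtn3 lies at chr10:79874476-79883174 and Elane at chr10:79886247-79888215, both on the plus strand and 3073 bases apart, with Cfd (complement factor D) 2638 bases beyond Elane. Mpo is at chr11:87793581-87804413 on the plus strand, Ctsg at chr14:56099881-56102574 on the minus strand, Ms4a3 at chr19:11629496-11640851 on the minus strand, Hp at chr8:109575128-109579172 on the minus strand and Anxa3 at chr5:96793339-96845966 on the plus strand. Mpo and Prtn3 share bases with a gene on the other strand, Gm11505 and Plppr3, and Anxa3 overlaps Gm42603 on its own strand. Whether reads were counted by strand is not given in the sources used here, so a small part of those counts could come from the overlapping gene.

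Because all 4 enzyme genes fell in the knockout, the DNA just upstream of their RefSeq start sites (GRCm38.p6) is shown, 5′ to 3′ on the strand of the gene. Each stretch starts 250 bases upstream of the start site and is shown up to the first base within that window that the GENCODE models of the gene place in an exon. The Prtn3 stretch lies inside the gene model given above, because a longer transcript starts further upstream, and it ends before the exon that begins at base 79879614. The stretches are chr10:79886062-79886246 for Elane (185 bases, plus strand), chr10:79879417-79879613 for Prtn3 (197 bases, plus strand), chr14:56102575-56102824 for Ctsg (250 bases, minus strand) and chr11:87793534-87793580 for Mpo (47 bases, plus strand). Capitals mark GAGGAA, the core that PU.1 and other ETS factors bind.
Elane: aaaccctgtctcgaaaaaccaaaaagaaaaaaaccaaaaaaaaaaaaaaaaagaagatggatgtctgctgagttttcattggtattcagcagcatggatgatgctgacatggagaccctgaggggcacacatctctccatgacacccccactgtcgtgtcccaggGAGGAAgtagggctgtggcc
Prtn3: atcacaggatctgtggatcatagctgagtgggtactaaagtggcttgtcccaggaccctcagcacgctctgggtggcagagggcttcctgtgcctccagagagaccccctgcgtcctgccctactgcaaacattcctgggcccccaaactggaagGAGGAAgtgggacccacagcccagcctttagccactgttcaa
Ctsg: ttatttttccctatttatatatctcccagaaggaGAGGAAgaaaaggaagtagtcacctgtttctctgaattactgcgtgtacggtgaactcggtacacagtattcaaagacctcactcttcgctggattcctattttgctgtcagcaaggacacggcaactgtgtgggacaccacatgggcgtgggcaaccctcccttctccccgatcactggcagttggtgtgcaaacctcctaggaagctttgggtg
Mpo: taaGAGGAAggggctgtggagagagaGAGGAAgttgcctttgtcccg

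Each of these 4 stretches held GAGGAA on the strand of the gene, with 1 copy in Elane, Prtn3 and Ctsg and 2 copies in Mpo, and the rest of their 250 bases held no other copy. The match began 85 bases upstream of the start site in Elane, 95 in Prtn3, 216 in Ctsg, and 247 and 224 in Mpo. GAGGAA or its reverse complement stood in 23.25% of the same 250-base window of all 32851 RefSeq promoters. The fifth gene with a RefSeq promoter, Ms4a3, also fell in the knockout but held no GAGGAA on either strand of its 250 bases. The C/EBP core TTNNGNAA, which 36.9% of all promoters held, did not occur in the 250 bases of the 4 enzyme genes. Ms4a3 had it 59 bases upstream. The MYB core AACTG (39.1% of all promoters, both strands) stood in the 250 bases of Prtn3, Ctsg and Mpo, in Mpo outside the shown stretch, and the RUNX core TGTGGT (14.05%) in those of Ctsg. These are letter matches in a short window and not evidence of binding. Sequences of Hp and Anxa3 are not shown here.

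The 4 libraries held 25242 barcodes, of which 24973 had at least 200 genes and at most 10% mitochondrial UMIs. In kept barcodes the libraries ranged from 25035656 to 60244814 UMIs. Many barcodes occurred in more than 1 library, and a barcode was called copied where its sequence carried 3 or more times its UMIs in a different library. Copied barcodes made up 14.8% of control replicate 1, 81.8% of control replicate 2, 65.3% of knockout replicate 1 and 18.8% of knockout replicate 2, so results are given with and without them. Of the sort antigens, Kit had a UMI in 18.9% and 20.5% of control and 14.4% and 13.99% of knockout cells thinned to 2000 UMIs, and Ly6a (Sca1) in 22.7% to 39.7% of cells. Ranbp2, the gene of Nup358, measured 127 and 101 CPM (UMIs per 1000000 UMIs) in the controls and 124 and 126 in the knockouts with copied barcodes left out. The tags lie at the 3′ ends of transcripts and not at the deleted exon, so its count does not test the genotype.

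All 7 genes were lower in the knockout than in the control. Over all kept barcodes, both control libraries lay above both knockout libraries for 7 of 7 genes, as they did for 24.5% of the 13844 genes tested. Elane had 1808.5 and 991.6 CPM in the controls, given as replicate 1 then 2 throughout, and 127.7 and 58.0 in the knockouts. Prtn3 had 3419 and 2007.5 CPM in the controls and 764 and 401 in the knockouts. Mpo had 2982.5 and 1521 CPM against 637 and 407. These 3 genes were 1.70 to 1.96 times higher in control replicate 1 than in control replicate 2, and 1.57 to 2.20 times higher in knockout replicate 1 than in knockout replicate 2.

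Ctsg varied least between replicates, with 1193 and 867 CPM in the controls and 393 and 267 in the knockouts. Ms4a3 had 410 and 234 CPM in the controls and 98.6 and 53.9 in the knockouts. Hp, the haptoglobin gene, had 130 and 83.0 CPM in the controls and 13.5 and 6.96 in the knockouts. Anxa3 had 86.1 and 54.8 CPM against 31.4 and 18.8, the nearest pair of groups among the 7. UMIs summed over a library do not separate fewer primed cells from less RNA per primed cell.

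**Figure D1:**
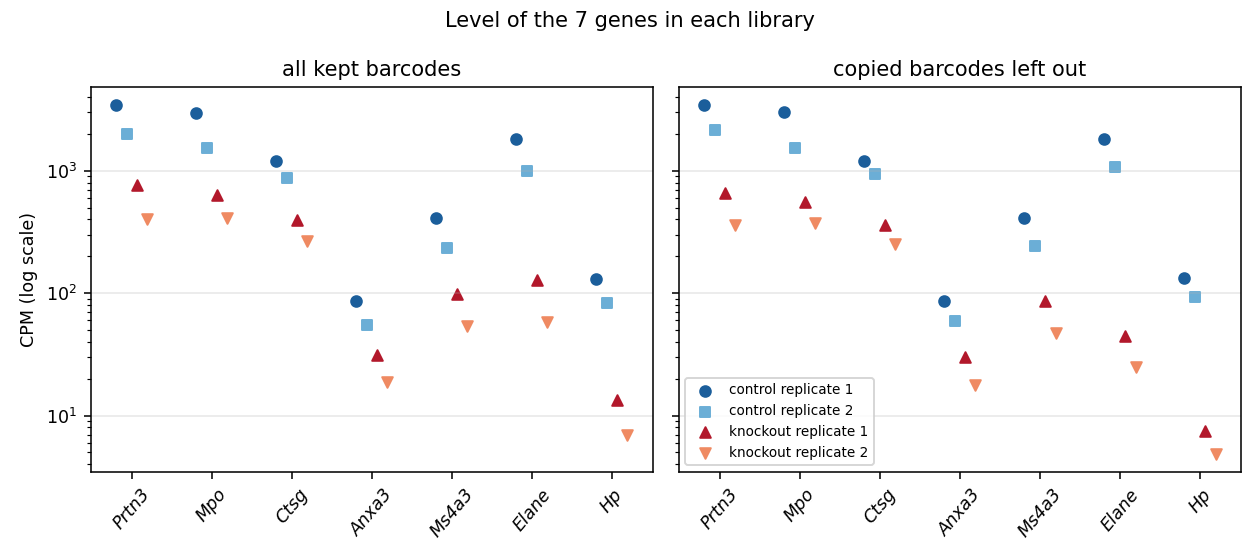
CPM of each gene (log axis) in the 4 libraries, 1 point per library, over all kept barcodes (left) and with copied barcodes left out (right). Both control points lie above both knockout points for every gene, and the Elane and Hp points of the knockouts drop further once copied barcodes are left out.

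In edgeR's quasi-likelihood test on these sums, 7 of 7 genes passed an adjusted p of 0.05 as lower in the knockout, against 289 of 13844 genes, or 2.09%, called lower. Elane fell by 3.94 on the log2 scale (SE 0.44, adjusted p = 0.0140) and Hp by 3.43 (SE 0.34, adjusted p = 0.0117). The log2 difference was -2.25 for Prtn3, -2.14 for Mpo, -2.11 for Ms4a3, -1.67 for Ctsg and -1.53 for Anxa3, with edgeR adjusted p from 0.0222 for Ctsg to 0.0461 for Anxa3. The median log2 difference was -2.14 over the 7 genes and -0.01 over all genes tested. Each library is a pool of mice, and p-values measure the spread between 2 pools a group. The paper names Elane, Hp and Anxa3 as markers of its neutrophil-primed clusters in these same libraries. It reports fewer knockout cells in those clusters. The 7 genes were chosen with earlier results of these data known, so 7 of 7 calls are not separate support.

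The copied barcodes mattered most for Elane and Hp. In knockout replicate 1 they carried 8.61% of all UMIs but 67.9% of the Elane UMIs and 49.3% of the Hp UMIs. In knockout replicate 2 they carried 1.61% of all UMIs but 57.7% of the Elane UMIs and 32.0% of the Hp UMIs. Of the Elane UMIs in those barcodes, 98.4% and 99.1% sat in a barcode whose highest count was in a control library. Copied barcodes alone held 1007 and 2079 CPM of Elane in the knockouts, beside 731 and 761 in the controls.

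With copied barcodes left out, Elane stood at 1831 and 1067 CPM in the controls and at 44.8 and 24.9 in the knockouts. It fell by 5.42 on the log2 scale (SE 0.40, edgeR adjusted p = 0.00626), or 42.7-fold, in place of 15.4-fold over all kept barcodes. Hp stood at 132 and 92.8 CPM against 7.48 and 4.81 and fell by 4.24 (SE 0.27, edgeR adjusted p = 0.00626). The other 5 changed less, with log2 differences of -2.50 for Prtn3, -2.34 for Ms4a3 and for Mpo, -1.85 for Ctsg and -1.65 for Anxa3 and edgeR adjusted p of 0.0126 to 0.0325. Again 7 of 7 were called lower, against 285 of 13779 genes (2.07%), and the groups did not overlap for 7 of 7, against 24.5% of genes.

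Within a library the genes did not fall in proportion. With copied barcodes left out there were 60.7 and 69.2 Elane UMIs per 100 Mpo UMIs in the controls and 8.14 and 6.66 in the knockouts, an 8.80-fold difference. With the copied ones left in, these were 60.6 and 65.2 against 20.0 and 14.2, or 3.72-fold. Against Prtn3, its neighbour on the chromosome, Elane went from 52.9 and 49.4 per 100 to 6.79 and 6.97. The ratio of Mpo to Prtn3 overlapped between the groups, with 87.3 and 71.3 Mpo UMIs per 100 Prtn3 UMIs in the controls and 83.4 and 105 in the knockouts. Hp per 100 Anxa3 UMIs went from 152 and 157 to 24.9 and 27.1. Of the 7 genes' UMIs, Elane made up 18.0% and 17.5% in the controls and 2.58% and 2.31% in the knockouts, and Ctsg made up 11.9% and 15.4% in the controls and 20.7% and 23.4% in the knockouts. An exact permutation test over 2 against 2 libraries cannot give a p below 0.3333, which was the value for Elane against Mpo, so these ratios are descriptions. Ratios are of UMIs, which are counted at the 3′ end without division by length.

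To see in what order the genes come on, each cell was thinned to 2000 UMIs and placed by how many of 14 other genes of the neutrophil path it held, the priming axis. The axis genes are Cebpa, Cebpe and Gfi1 (transcription factors), Fcgr3 (an IgG receptor), Lcn2, Fcnb and Wfdc21 (secreted granule or defence proteins), Prss57 (a primary granule protease), Cst7 (a cystatin), Clec12a (a lectin receptor), Mgst1 (a glutathione transferase), Nkg7, Plac8 and Dmkn. Thinning kept 13480 of the 14041 barcodes that were not copied. With copied ones left in it kept 14238 of 24973, among them 1647 of 6793 in control replicate 2 and 1669 of 4749 in knockout replicate 1. Values over all kept barcodes by axis genes, in cells with priming, by thinned cell or by marker range rest on these 14238. No gene of the 7 is on the axis. The axis genes were far from equally common. Plac8 had a UMI in 79.0% and 80.9% of control and 77.0% and 70.3% of knockout thinned cells. Nkg7 had one in 34.0% and 22.0% against 27.1% and 30.3%, and each other axis gene in at most 14.04% of a library. A low number of axis genes can thus rest mainly on Plac8 and Nkg7. Which axis genes made up a number was not compared between the groups.

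In control replicate 1, the library with most cells, cells with 0 axis genes (931 cells) already held 1.28 Prtn3 and 0.694 Mpo UMIs on average but 0.0483 Elane UMIs. Cells with 3 axis genes (986 cells) held 8.01 Prtn3, 7.31 Mpo and 3.63 Elane UMIs. Cells with 7 or more (36 cells) held 31.4 Prtn3, 21.7 Mpo and 33.6 Elane UMIs. Elane thus started far below Mpo and ended above it on the scale of mean UMIs per thinned cell. Mpo reached 10% of its top bin at 1 axis gene, Prtn3, Ctsg and Anxa3 at 2, and Elane, Ms4a3 and Hp at 3. Mpo reached 50% of its top bin at 4 axis genes, Elane at 6 and the remaining genes at 5.

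**Figure D2:**
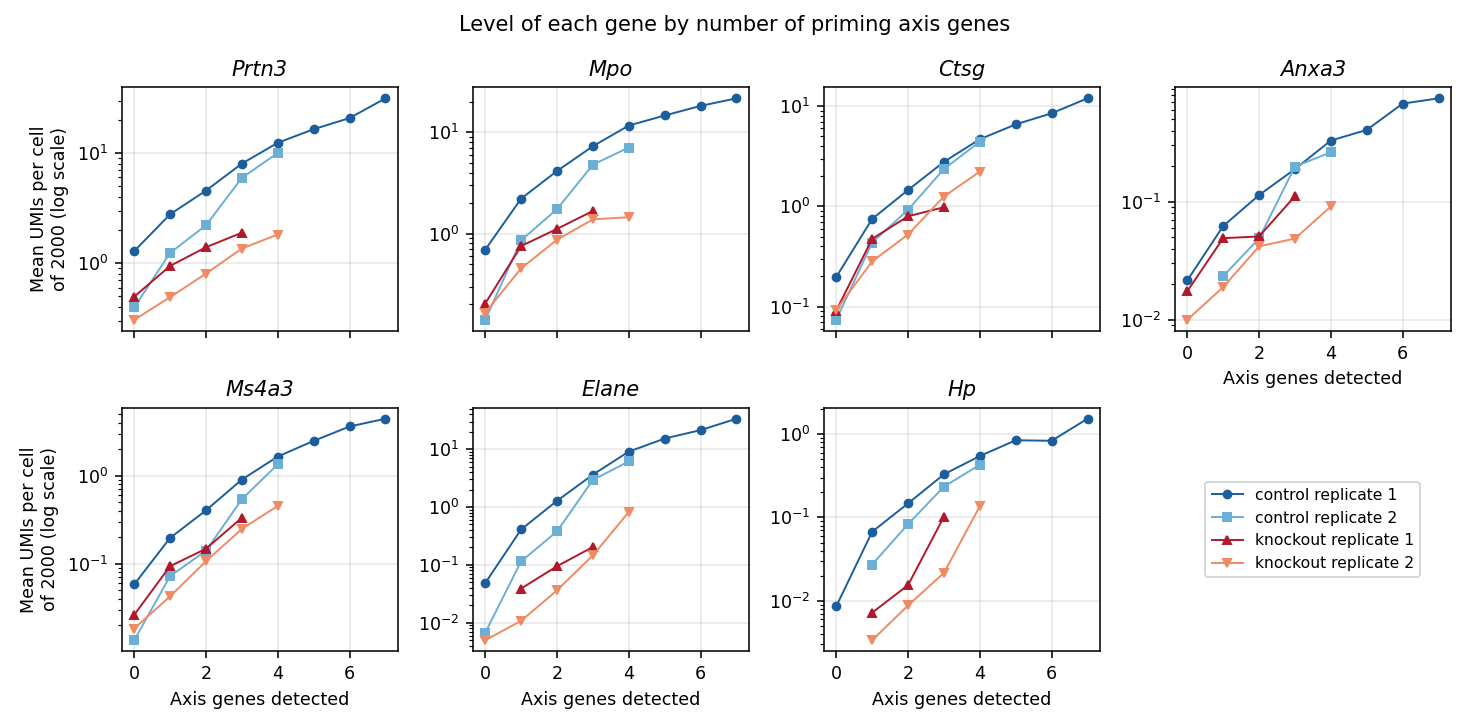
Mean UMIs per cell of each gene (log axis, cells thinned to 2000 UMIs, copied barcodes left out) against the number of the 14 axis genes detected, with 7 standing for 7 or more. Each line is 1 library, bins of under 20 cells and means of 0 are not drawn, and Elane climbs from 0.0483 to 33.6 in control replicate 1 while in the Elane panel both knockout lines stay below both control lines from 1 axis gene on. At 1 axis gene the lines of the groups overlap for Ctsg, Ms4a3 and Anxa3.

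A second measure of order was the mean number of axis genes in a cell, weighted by the gene's UMIs and taken in each library. Averaged over the 4 libraries this position was 2.25 for Prtn3, 2.29 for Mpo, 2.43 for Ctsg, 2.48 for Anxa3, 2.69 for Ms4a3, 3.32 for Elane and 3.42 for Hp. Elane lay later than Prtn3, Mpo, Ctsg, Anxa3 and Ms4a3 in 4 of 4 libraries, by 1.07 ± 0.43 axis genes (SD, n = 4) from Prtn3. The gap from Prtn3 was 1.05 and 1.23 in the controls and 0.492 and 1.51 in the knockouts. Only 3.86% and 1.90% of knockout thinned cells had Elane, so its positions there rest on few UMIs. In knockout replicate 2, 1 cell with 7 or more axis genes held 17 of them. Several neighbours could not be ordered: Mpo lay after Prtn3 in 3 of 4 libraries, by 0.04 ± 0.06 (SD, n = 4), and Anxa3 after Ctsg in 2 of 4. Hp lay after Elane in 2 of 4 libraries, before it in both controls and after it in both knockouts, where Hp rested on few UMIs. In the controls alone Elane had the latest position, 3.98 ± 0.26 (SD, n = 2). With 4 libraries no test of signs can reach 0.05, so the order is a description. Elane again lay later than Prtn3 in 4 of 4 libraries over all kept barcodes, by 1.42, but Prtn3 was not the earliest gene, since Mpo lay after it in 1 of 4 and Ctsg and Anxa3 in 2 of 4. Without the 5 axis genes of the study's own neutrophil list, Hp lay after Elane in 0 of 4.

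Cells with the same number of axis genes differed between the groups, and by how much depended on the copied barcodes, which are left out first. At 3 axis genes Elane had 3.63 and 2.94 UMIs per thinned cell in the controls and 0.204 and 0.146 in the knockouts, an 18.8-fold difference of the group means. Prtn3 had 8.01 and 5.95 against 1.89 and 1.36, or 4.30-fold. Mpo had 7.31 and 4.80 against 1.68 and 1.38, or 3.96-fold. The differences were 4.56-fold for Hp, 2.49-fold for Ms4a3, 2.42-fold for Anxa3 and 2.30-fold for Ctsg. In this bin both controls lay above both knockouts for 7 of 7 genes, and for 15.2% of the 2199 genes at or above the mean level of the lowest of the 7. At 0 axis genes the groups overlapped for 6 of 7 genes, all but Elane, at 1 for Ctsg, Ms4a3 and Anxa3, and at 2 for Ms4a3 and Anxa3. The share over all genes was not computed for these 3 bins, so their counts are descriptions. Elane at 0 axis genes was near nothing, with 0.0067 UMIs per cell in control replicate 2 (149 cells) and 0.0050 in knockout replicate 2 (603 cells). Its lack of overlap there carries little weight. At 0 Mpo had 0.694 and 0.141 UMIs per thinned cell in the controls and 0.204 and 0.166 in the knockouts. Elane kept a 10.54-fold difference at 1 axis gene, with 0.409 and 0.115 against 0.0389 and 0.0108.

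The gap at 3 axis genes was far smaller over all kept barcodes. Elane then had 3.66 and 2.11 UMIs per thinned cell in the controls and 1.93 and 0.682 in the knockouts, a 2.21-fold difference in place of 18.8-fold. The difference was 2.00-fold for Prtn3, 2.01-fold for Mpo and 1.48-fold for Ctsg. Both controls lay above both knockouts for these 4 of 7 genes, as for 14.5% of 2104 genes, and the groups overlapped for Ms4a3, Hp and Anxa3.

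The later part of the axis held smaller shares of the knockout libraries. Cells with at least 4 axis genes, called cells with priming here, were 8.67% (657 cells, exact 95% binomial interval 8.05% to 9.33%) and 5.71% (68 cells, 4.46% to 7.18%) of the controls. They were 1.13% (17 cells, 0.660% to 1.80%) and 0.841% (27 cells, 0.555% to 1.22%) of the knockouts. The difference of the means was -6.20 percentage points, with an exact permutation p of 0.3333, the smallest possible. The cut falls on a sliding range, since 986 cells of control replicate 1 lay 1 axis gene below it and 398 on it. Intervals cover counting error only. From these same libraries the paper reports fewer knockout cells in its neutrophil-primed clusters, so the smaller share is not a separate observation. The shares over all kept barcodes were 8.77% and 4.68% in the controls and 3.48% and 1.79% in the knockouts, a difference of -4.09 points.

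Among cells with priming the knockout was compared through its replicate 2 alone, since replicate 1 had fewer than 20 such cells, and that lone sample is assumed to vary like the controls. Of the 27 cells of knockout replicate 2, 18.5% had an Elane UMI after thinning, so its level rests on few cells. The 17 cells of knockout replicate 1, outside the fit, held 184 CPM of Elane and 39.5 of Hp. Elane had 7396 and 6138 CPM in the controls and 698 in knockout replicate 2, and fell by 3.34 on the log2 scale (SE 0.39, edgeR adjusted p = 0.0182). Prtn3 had 8598 and 8394.5 CPM in the controls and 1397 in knockout replicate 2, and fell by 2.67 (SE 0.37, edgeR adjusted p = 0.0374). These 2 of 7 were called, against 11 of 9564 genes (0.115%) called lower. Mpo, at 7271 and 5352 CPM against 1335, had a log2 difference of -2.30 with an edgeR adjusted p of 0.0746. Hp, at 355 and 442 CPM against 225, had -0.90 with an edgeR adjusted p of 0.522.

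When all kept barcodes were used, 58 and 59 knockout cells had priming and all 4 libraries entered. Elane stood at 7410 and 6084 CPM in the controls and 2432 and 2219 in the knockouts and fell by 1.58 on the log2 scale (SE 0.18, edgeR adjusted p = 0.0116), or 2.99-fold, in place of 10.1-fold. Prtn3 had a log2 difference of -1.40 and Mpo of -1.35, with edgeR adjusted p of 0.0254 and 0.0355. These 3 of 7 were called, against 0.108% of 8312 genes called lower.

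At least 3 axis genes, with copied barcodes left out, gave 1643, 179, 125 and 212 cells and let all 4 libraries enter. There Elane had 4711 and 4081 CPM in the controls against 93.2 and 162 in the knockouts and fell by 5.23 (SE 0.31, edgeR adjusted p = 9.0e-06). With this looser cut 7 of 7 genes were called lower, against 410 of 10449 genes (3.92%), and it was not fitted over all kept barcodes. In the cells with priming of knockout replicate 2, 7 of the 8 tested genes of the basophil and mast list were called higher than in the controls, with a median log2 difference of 6.29, against 0.209% of all genes called higher. Those cells thus also differed in markers of another lineage, and the part of this in the result was not tested.

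Detection per cell showed which genes travel together. With every cell thinned to 2000 UMIs, Prtn3 had a UMI in 79.4% and 52.6% of control cells and in 48.0% and 30.5% of knockout cells. Mpo had one in 64.7% and 40.6% against 31.6% and 25.7%. Elane had one in 25.4% and 12.3% of control cells against 3.86% and 1.90% of knockout cells. Hp had one in 12.6% and 6.97% against 1.198% and 0.530%. The same shares over all kept barcodes without thinning were 30.3% and 18.4% against 12.5% and 10.1% for Elane, and over all kept barcodes thinned to 2000 UMIs 25.6% and 11.4% against 8.39% and 3.55%.

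Elane was also concentrated in few control cells that held much of it. Control cells that were not copied and had Elane held 8.48 and 8.06 UMIs of it on average, with up to 75 in 1 cell, while knockout cells with Elane held 1.69 and 1.92. Cells with at least 10 Elane UMIs numbered 587 and 49 in the controls and 1 and 2 in the knockouts. Prtn3 cells held 6.18 and 4.90 UMIs in the controls and 2.27 and 2.00 in the knockouts. The gap in Elane was not seen over all kept barcodes, with 8.57 and 6.72 UMIs per Elane cell in the controls and 9.25 and 8.88 in the knockouts. In control replicate 1, with copied barcodes left out, the 5% of cells richest in each gene carried 60.3% of the Elane UMIs, 26.2% of the Prtn3 UMIs and 25.5% of the Mpo UMIs. They carried 57.4% for Anxa3, 56.1% for Hp, 44.9% for Ms4a3 and 32.4% for Ctsg. This measure also rises where fewer cells hold a gene, so a high value was not particular to Elane.

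Free RNA in the droplets sets a floor for these shares. Among cells with at least 3 markers of the lymphoid and B list, which should lack the granule genes, 0 of 66 and 0 of 176 thinned cells of the knockouts had an Elane UMI, which allows shares of up to 4.55% and 1.70% (3 counts of the total). The shares of all knockout cells with Elane, 3.86% (exact 95% interval 2.94% to 4.96%) and 1.90% (1.46% to 2.43%), lay below or across those limits and cannot be read as expression from the share alone. Hp was likewise found in 0 of 66 and 0 of 176 of these cells, and its knockout shares of 1.198% and 0.530% lay below the same limits. Both sides were thinned to 2000 UMIs. The limits follow from the small numbers of lymphoid and B cells and are not a measured floor. Summed without thinning, those cells held 0 and 0.428 CPM of Elane and the same of Hp. All knockout cells that were not copied held 44.8 and 24.9 CPM of Elane and 7.48 and 4.81 of Hp. How much of this is free RNA was not tested. In the same lymphoid and B cells Mpo was found in 3.03% and 3.41%, against 31.6% and 25.7% of all knockout cells. In control replicate 1, 4.55% of 110 cells with erythroid and megakaryocyte markers had Elane and 13.6% had Mpo, against 25.4% and 64.7% of all cells.

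Cells with Elane lay mostly within the cells with Prtn3 and Mpo. Of cells with Elane, 97.9% and 97.3% in the controls also had Prtn3 and 96.0% and 93.9% had Mpo. The reverse did not hold, since 31.3% and 22.8% of control cells with Prtn3 had Elane. Over all control cells Prtn3 was in 79.4% and 52.6%, Mpo in 64.7% and 40.6% and Elane in 25.4% and 12.3%. Not every pair was nested. In the control means 62.0% of cells with Elane had Ms4a3 and 68.0% of those with Ms4a3 had Elane. Of control cells with Hp, 66.8% had Elane. In the knockouts 91.4% and 85.2% of the 58 and 61 cells with Elane had Prtn3 and 98.3% and 91.8% had Mpo. Of knockout cells with Prtn3, 7.35% and 5.31% had Elane, so the share of Prtn3 cells with Elane was 20.7 points lower in the knockout means. Over all kept barcodes 31.5% and 19.6% of control and 15.9% and 10.3% of knockout cells with Prtn3 had Elane. Hp was found in 36.5% and 34.01% of control cells with Elane and in 10.3% and 8.20% of knockout cells with Elane. Over all knockout cells the shares with Elane and with Hp lay below or across the limits above. As point values, the shares of Elane among knockout cells with Prtn3, and of Hp among the 58 and 61 with Elane, lay above those limits. No intervals were made for these shares, and those of Hp rest on few cells. Shares of detection rise with the level of a gene, and no test was made of the pairs.

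**Figure D3:**
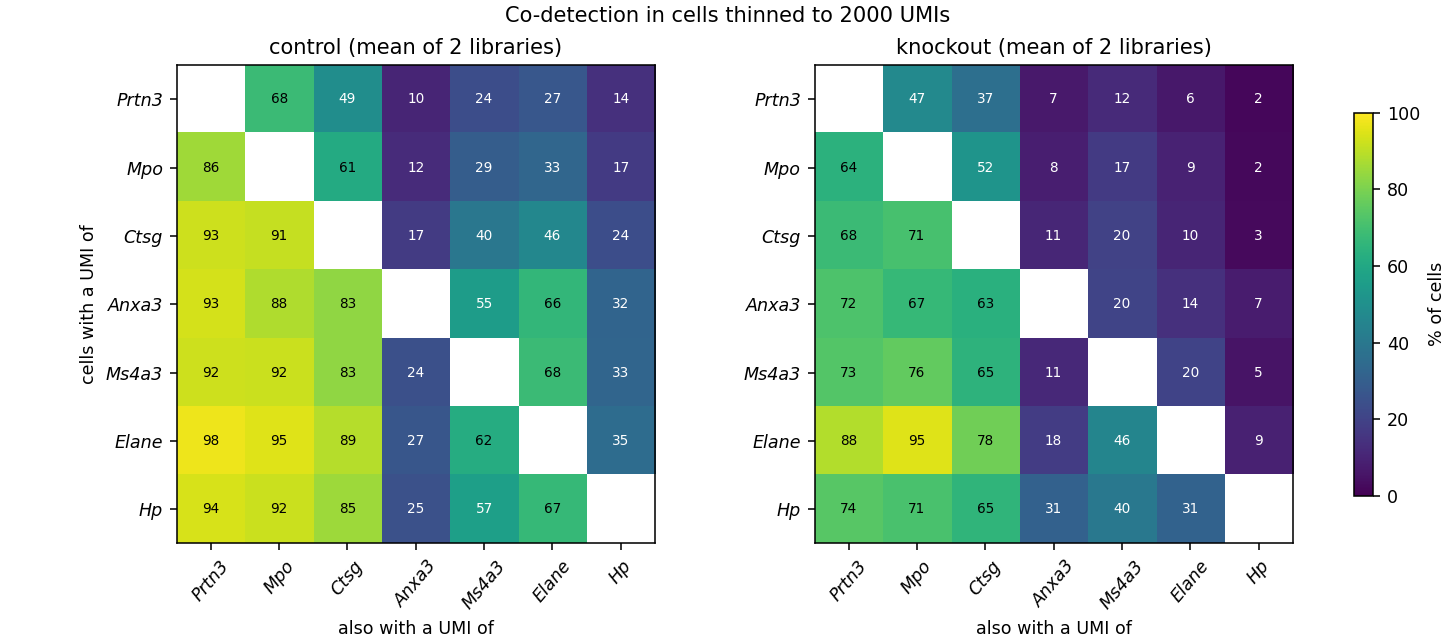
Percent of cells with a UMI of the row gene that also had a UMI of the column gene, in cells thinned to 2000 UMIs with copied barcodes left out, as the mean of the 2 control (left) and 2 knockout (right) libraries. The rows of Elane are filled at Prtn3, Mpo and Ctsg in both groups, while the Elane and Hp columns are darker in the knockout.

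Counting genes per cell set out the same detection calls as a ladder. Its order follows how often each gene was detected, so it is not separate evidence of nesting. In control replicate 1, of the 1680 cells with 1 of the 7 genes, 75.2% had Prtn3, 17.3% had Mpo and 1.43% had Elane. Of its 1412 cells with 2 genes, 91.6% had Prtn3 and 83.0% had Mpo. Of its 1165 cells with 3 genes, 76.4% had Ctsg and 7.98% had Elane, and among the 784 cells with 4 genes 45.03% had Elane. Prtn3 was also the lone gene in 64.8% of such cells of control replicate 2, and in 70.5% and 53.1% of those of the knockouts. Ctsg was the lone gene in 2.50% and 4.63% of such control cells and in 7.89% and 12.5% of such knockout cells.

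Cells with none of the 7 genes were 13.4% and 35.8% of the controls and 39.8% and 53.3% of the knockouts. Cells with 6 of the 7 were 7.54% and 4.03% of the controls and 0.466% and 0.218% of the knockouts. Cells with all 7 numbered 203 and 11 in the controls and 2 and 1 in the knockouts. The groups were near each other in the middle of the range, with 4 genes in 10.3% and 5.04% of control cells and in 5.12% and 2.62% of knockout cells. With the copied ones left in, cells with none of the 7 were 13.3% and 32.5% of the controls and 36.9% and 52.1% of the knockouts, and cells with 6 of the 7 were 7.58% and 3.40% against 2.88% and 0.910%.

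**Figure D4:**
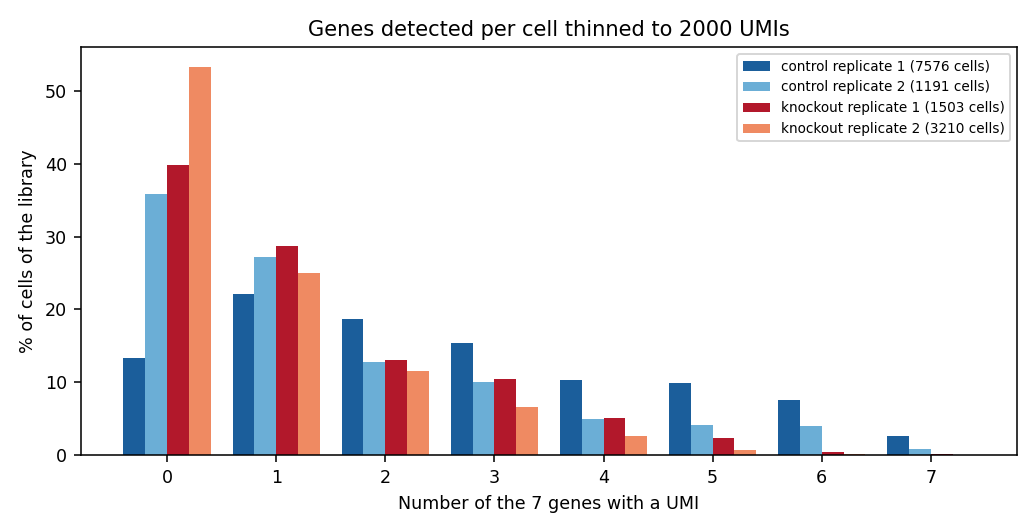
Percent of the cells of each library (bars from 0) by how many of the 7 genes had a UMI, in cells thinned to 2000 UMIs with copied barcodes left out. Knockout libraries have more cells at 0 genes, 39.8% and 53.3%, and bars near 0 at 6 and 7 genes.

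Cells were also set into ranges by lineage markers, with at least 3 distinct markers of a list and more than of any other. These ranges are cuts of a score and not cell types. In the control cells with monocyte and dendritic markers (444 and 45 cells), Elane had 4757 and 3189 CPM, and in the knockout cells of that range (44 and 48 cells) it had 46.7 and 8.97 CPM. Mpo had 6441 and 4669 CPM there in the controls and 477 and 236 in the knockouts. This range was made up differently in the groups: Siglech, a marker of plasmacytoid dendritic cells, had a UMI in 0.676% and 0% of its control cells and 52.3% and 56.3% of its knockout cells. F13a1, a monocyte gene, stood there at 395 and 429 CPM in the controls and 31.8 and 62.8 in the knockouts. Its cells held a median of 11176 and 27445 UMIs in the controls and 4243 and 4790 in the knockouts, and the part of this in the result was not tested.

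Cells with stem markers held less, with 449 and 163 CPM of Elane in the controls (3032 and 585 cells) and 18.6 and 9.35 in the knockouts (555 and 1152 cells). Cells without lineage markers had 2186 and 1561 CPM of Elane in the controls and 63.5 and 34.4 in the knockouts. Both controls lay above both knockouts for 7 of 7 genes in the monocyte and dendritic range, 6 of 7 in the stem range and 7 of 7 without lineage markers, as for 38.1%, 22.6% and 17.4% of the genes at or above the mean level of the lowest of the 7 in each. Over all kept barcodes Elane had 4760.5 and 3176 CPM against 889 and 706 in the monocyte and dendritic range, 452 and 157 against 22.8 and 9.38 in the stem range, and 2191 and 1451.5 against 134 and 64.9 without lineage markers.

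The 22 cells with basophil and mast markers of knockout replicate 2 kept 1769 CPM of Mpo but 230 CPM of Elane. In those 22 cells Ctsg made up 44.5% of the 7 genes' UMIs, against 23.0% in the cells without lineage markers of the same library. Knockout replicate 1 had 5 cells with basophil and mast markers, under the 20 needed, so this contrast rests on 1 library. In the knockout cells with lymphoid and B markers (66 and 176 cells) Elane had 0 and 0.428 CPM and Mpo 40.3 and 36.0 CPM. Such cells were 4.39% and 5.48% of the knockouts and 0.119% and 0.336% of the controls, and cells with monocyte and dendritic markers were 2.93% and 1.495% against 5.86% and 3.78%. The part of these shares in the fall of the 7 genes was not tested.

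**Figure D5:**
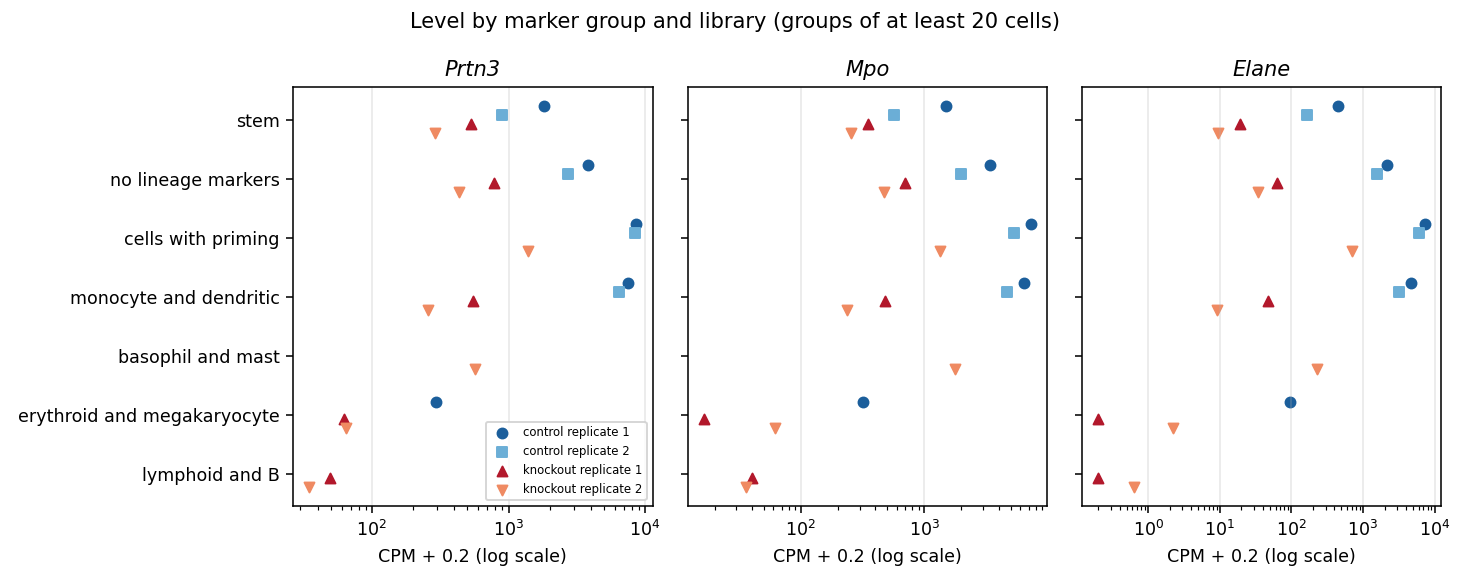
CPM plus 0.2 (log axis) of Prtn3, Mpo and Elane by marker range, 1 point per library for ranges of at least 20 cells, copied barcodes left out. Cells with priming are counted again within the other ranges, and in the stem, no lineage marker and monocyte and dendritic ranges the control points lie to the right of the knockout points.

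Other genes of the pathway fell in part. With copied barcodes left out, 8 of 14 axis genes were called lower and none higher in edgeR's test, with a median log2 difference of -2.03. Over all genes 2.07% were called lower and 1.37% higher. The lists share genes, so Cebpe, Lcn2 and Prss57 are counted here and again in the lists below. They were Cebpe, a factor needed for the later granule stage (-3.42, adjusted p = 0.00626), Fcgr3 (-3.19), Dmkn (-3.39), Lcn2 (-3.02), Clec12a (-2.08), Mgst1 (-1.98), Cst7 (-1.27) and Prss57 (-1.11). Cebpa, the factor that starts the granulocyte programme, had a log2 difference of -0.74 with an edgeR adjusted p of 0.0663. Gfi1 had -0.41 and Nkg7 -0.14, with edgeR adjusted p of 0.213 and 0.737. Since axis genes fell too, equal numbers of axis genes may not mark equal stages in both groups.

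Of the other primary granule genes and their handling, 2 of 10 tested were called lower and none higher, beside 2.07% of all genes called lower. They were Prss57, already counted as an axis gene, and Serpinb1a, an inhibitor of elastase-type proteases (-0.86, edgeR adjusted p = 0.0330). The median of that list was -0.26, beside -2.34 for the 7 genes. Of later granule and mature neutrophil genes, 1 of 15 was called lower and none higher, though the median was -2.43. It was Lcn2 (lipocalin 2), already counted as an axis gene. Of regulators and receptors, 4 of 12 were called lower and none higher, again beside 2.07% of all genes called lower. They were the axis gene Cebpe, Spi1, which encodes PU.1 (-0.78, edgeR adjusted p = 0.0433), Csf2ra (-1.20), a chain of the GM-CSF receptor, and Il6ra (-1.02), the IL-6 receptor.

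Lists of other lineages moved at the same time, beside 2.07% of all genes called lower and 1.37% called higher. Of lymphoid and B markers, 5 of 12 were called higher, against 1.37% of all genes, and none lower, with a median of 3.47, among them Cd79a (4.29), a chain of the B cell receptor. Of monocyte and dendritic markers 5 of 10 were called lower and 2 higher, with Csf1r, the M-CSF receptor, at -3.28 and Siglech at 5.07. Basophil and mast markers had 3 of 9 higher and none lower, stem markers 1 of 10 lower (Ifitm1, -0.99) and none higher, and none of 10 erythroid and megakaryocyte or 6 tested T and NK markers was called. The calls in the same lists over all kept barcodes were 8 of 14 axis genes, 3 of 10 other primary granule genes, 1 of 15 later genes and 3 of 12 regulators lower, and 3 of 12 lymphoid and B and 2 of 9 basophil and mast markers higher. Over all genes 289 of 13844 (2.09%) were called lower there and 126 higher.

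The genes whose UMIs varied most like the summed 7 from cell to cell were found by the within-library correlation of log2(UMI + 1), averaged over the 4 libraries, among 8806 genes. They were Plac8 (mean r = 0.44), Calr (0.42), which encodes the chaperone calreticulin, Ap3s1 (0.34), a subunit of the AP-3 sorting complex, Pgam1 (0.32), a glycolytic enzyme, H2afy (0.29), a macroH2A histone, F13a1 (0.27), Gpx1 (0.27), Ccl9 (0.26), Gapdh (0.26) and Tspo (0.26). The r of Plac8, which is also an axis gene, was 0.57 and 0.53 in the controls and 0.37 and 0.29 in the knockouts. These points are cells of 1 library that share its free RNA, and the values are descriptions. Of these 10 genes, 7 were also among the 10 most alike over all kept barcodes.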

How the data were processed

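Single LSK cells of 4 mouse libraries were measured with a 10x Chromium 3′ kit. The authors deposited UMI counts per gene and barcode, raw and not normalised, made with Cell Ranger 3.1 on mm10 per the labels. Barcodes under 200 genes or over 10% mitochondrial UMIs were dropped. No doublet caller was run, and the tables show no doublet removal. Groups were taken from the genotype labels. Counts were summed per library and tested with edgeR 4.0.16 (quasi-likelihood, TMM scaling, low counts filtered by expression) in R 4.3.3, with Benjamini-Hochberg adjustment over all genes tested and a threshold of 0.05. DESeq2 1.42.0, the study's tool, was an alternative, beside other scaling, filters, thinning, axis cuts, a replicate block and leaving out each library. Cells were thinned to 2000 UMIs for shares per cell. Of the barcodes that were not copied 561 were shallower, and of all 24973 kept barcodes 14238 reached this depth. CPM is the summed UMIs of a gene per 1000000 UMIs of the cells summed in that library (all kept, not copied, with priming or in a marker range). Groups and bins of under 20 cells were not used in fits, onset bins or figures. Every member is named with its values, a list gene where it passed with one of the 5 smallest p of its list or is an axis gene, and the 10 most alike genes by correlation. The members and lists were chosen with earlier results of these data known, and the axis holds 5 genes of the study's own neutrophil list. The fits were tested on simulated data. The sample labels name no cultures or animals beyond the pools. The labels do not say whether the replicate numbers pair the libraries, so the main fits held no block. The correlation over genes of replicate 1 minus replicate 2, control with knockout, does not decide it. It was 0.003 over all kept barcodes and -0.06 with copied barcodes left out. Python 3.11.15 was used for the other steps.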

Additional observations from a re-analysis of the deposited data

How the results depend on the processing

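In the fits on summed UMIs all 7 genes stayed lower than the control in every alternative run. Over all kept barcodes 7 of 7 were called in each alternative with all 4 libraries except at least 500 genes per cell. There Anxa3 missed the threshold (edgeR adjusted p = 0.0521). With copied barcodes left out 7 of 7 were called in each such alternative. The genes called lower over all genes varied with the fit. Over all kept barcodes they were 618 of 13985 with DESeq2, 1211 of 19196 with no filter and 599 of 13844 with a replicate block. With copied barcodes left out they were 551 of 14335, 1088 of 19166 and 731 of 13779. Without 1 library Elane lay between -4.62 and -3.47 on the log2 scale over all kept barcodes. With copied barcodes left out as well it lay between -5.89 and -5.01. Among cells with priming Elane was -3.36 with DESeq2 in place of -3.34, with knockout replicate 2 alone. Over all kept barcodes Elane was -1.58 and 3 of 7 genes were called, against 9 of 8312 genes called lower. At 1000 UMIs with the cut lowered to 2 axis genes 7 of 7 were called, against 254 of 11423 genes. With at least 3 axis genes 7 of 7 were called, against 410 of 10449. At the cut of 3, leaving out 1 library and a replicate block were both added after seeing the data. The block called 7 of 7, against 555 of 10449 genes called lower. Without 1 library Elane lay between -5.69 and -4.88. At 4 axis genes the block and leaving out a library were not run, since 3 libraries entered, and at least 5 axis genes was not run, with 3 and 5 knockout cells. The number of genes past the threshold moved more. Over all kept barcodes 415 became 934 with DESeq2, 2076 with no filter, 980 with a replicate block and 324 to 2353 without 1 library (1146 without control replicate 1, 2353 without control replicate 2). With copied barcodes left out 474 became 886, 1933, 1257 and 372 to 2890 in the same order (2890 without control replicate 1, 1932 without control replicate 2). Among cells with priming 31 became 177 with no filter, 400 at 1000 UMIs with at least 2 axis genes, 18 over all kept barcodes and 612 with at least 3 axis genes, where a replicate block gave 880 and leaving out control replicate 1, control replicate 2, knockout replicate 1 and knockout replicate 2 gave 2055, 1742, 272 and 193. Whether the replicate numbers pair the libraries is not known. The share of cells with priming differed by -10.9 to -2.62 percentage points over the planned settings (exact permutation p 0.3333 to 0.667, the latter without thinning, where the groups overlapped), and by -7.69 to -4.72 without 1 library. Elane stayed later than Prtn3 on the axis, by 0.92 to 1.26 without 1 library by 0.70 at 1000 UMIs, by 0.73 without the study's 5 list genes and by 3.36 summed axis UMIs, in place of 1.07 axis genes. The gap in Prtn3 cells with Elane was 16.5 to 25.0 points without 1 library and 12.5 points over all kept barcodes, in place of 20.7. Per-cell values over all kept barcodes were added after seeing the data. There the log2 difference of UMIs per cell with the gene turned to 0.25 for Elane and 0.017 for Ms4a3, in place of -2.20 and -0.51, and the pooled Elane difference without lineage markers was 22.1-fold in place of 45.0-fold. The cause of these moves was not tested. With 2 libraries a group and 17 and 27 knockout cells with priming, levels within those cells rest on few cells.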
